A study of Mus musculus with 46 samples.

Results

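The kidney metabolome of young adult mice was compared between castrated and sham-operated males at 12 weeks of age, with sham-operated females as context. The part described here is the table of kidney compounds at that age, taken whole: 723 named compounds, of 5762 compound entries that the metabolite tables of the series hold in all. All animals were C57BL6 mice of wild-type genotype on normal water and chow in a pathogen-free facility, and surgery, castration or sham, was performed at 8 weeks of age. The 3 groups were thus sham males, castrated males and sham females, and the series addressed how castration bears on sex differences in ageing. Compounds were measured by untargeted metabolomics, which records the signals of many small molecules at once and names them by matching fragment spectra.

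For each compound 1 mean relative abundance per group is given, without a spread, a number of animals or a depth. No difference between groups could therefore be tested, no library or animal could be left out, and every value below is a description of group means. The values ranged from 0.00027 to 871, and they cannot be compared between compounds, because each molecule is detected with its own efficiency. Many names in the table are those of plant products, foods or drugs. How firmly each name is established is not stated.

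Testosterone, made mostly by the testis, acts in the mouse kidney through the androgen receptor, above all in the proximal tubule, whose cells reabsorb filtered solutes, burn fatty acids and secrete organic acids. The male and female kidney differ in enzymes of lipid, amino acid and xenobiotic handling. Castration removes the testicular hormones, so that a castrated male can be set beside both a male with testes and a female.

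A rough measure of spread was taken from pairs of names that denote the same compound or the same lipid composition. For 23 such pairs, the log2 ratio of castrated to sham males differed between the paired names by a median of 0.14, and by under 0.2 in 15 pairs. AMP gave 0.77 and 0.80 under its 2 names, and inosinic acid 0.83 and 0.91. The widest gap, 1.89, was between pyroglutamic acid, at -0.03, and its synonym pyrrolidonecarboxylic acid, at -1.92, and the next widest was 0.58. A ratio of 2-fold was wider than all but 1 of these gaps and was used as the limit below. Some pairs may be separate isomers, so their gaps can hold real differences as well as the spread of the measurement. These gaps say nothing about differences between animals.

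Most of the kidney metabolome lay close to its sham male level after castration. The median compound had a log2 ratio of 0.03, and 549 of 723 compounds (75.9%) were within 1.5-fold of the sham male mean. In castrated males 32 compounds were at least 2-fold higher, 4.43% of those measured, and 37 were at least 2-fold lower, 5.12%. Ratios above 0 were found for 54.9% of compounds and ratios below 0 for 45.1%. Sham females differed from sham males by 2-fold in more compounds, with 52 higher (7.19%) and 45 lower (6.22%). Between castrated males and sham females, 27 compounds were at least 2-fold higher in the castrated males (3.73%) and 11 were lower (1.52%). The 3 comparisons share their groups, so their ratios are not independent of each other and are given only side by side.

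**Figure D1:**
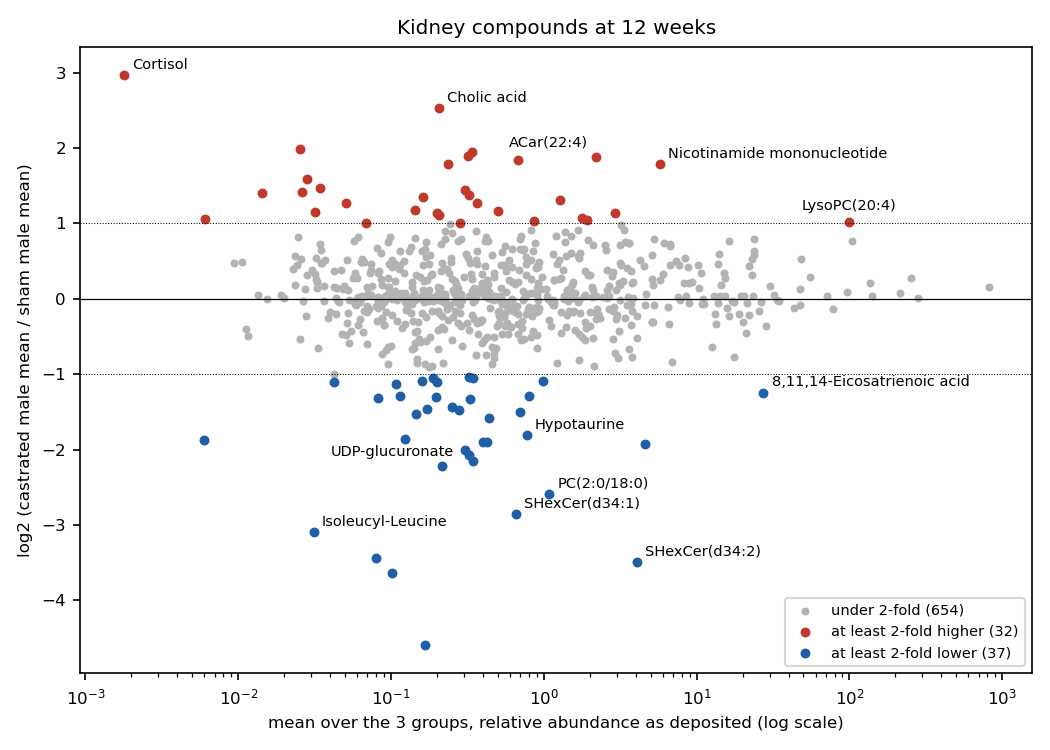
Each point is 1 of the 723 kidney compounds at 12 weeks. The x axis is its mean relative abundance over the 3 groups on a log scale, and the y axis is the log2 ratio of the castrated male to the sham male mean. The 32 compounds at least 2-fold higher are red, the 37 at least 2-fold lower are blue, and dotted lines mark the 2-fold limits. The sulfatide SHexCer(d34:2) stands far below the other compounds with a similar mean.

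The sulfatides, sulfated galactosylceramides of the outer membrane leaflet that are abundant in renal tubules, were among the lowest compounds in castrated males. Both entries of the class, written as SHexCer with the total carbons and double bonds of their ceramide, were past the 2-fold limit. SHexCer(d34:2) had means of 11.2 in sham males and 0.992 in castrated males, against 0.0415 in females, so castrated males were 11.3-fold below sham males and still above females. SHexCer(d34:1) had means of 1.61, 0.222 and 0.13, a 7.22-fold lower level in castrated than in sham males. On the log2 scale the castrated to sham male ratios were -3.49 and -2.85, and the female to sham male ratios were -8.08 and -3.62. Sham males were highest and females lowest in both.

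The same pair of sulfatides was low in castrated males at 18 months in a separately deposited kidney table. There SHexCer(d34:2) had means of 12.8 in sham males and 0.0225 in castrated males, against 0.24 in females. SHexCer(d34:1) had means of 2.47, 0.254 and 0.619. At both ages the castrated male means were below the sham male means for both compounds, but the order of castrated males and females was reversed, with castrated males lowest at 18 months and females lowest at 12 weeks. Whether the 2 ages share a scale is not stated, so their means can be compared only within an age.

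**Figure D2:**
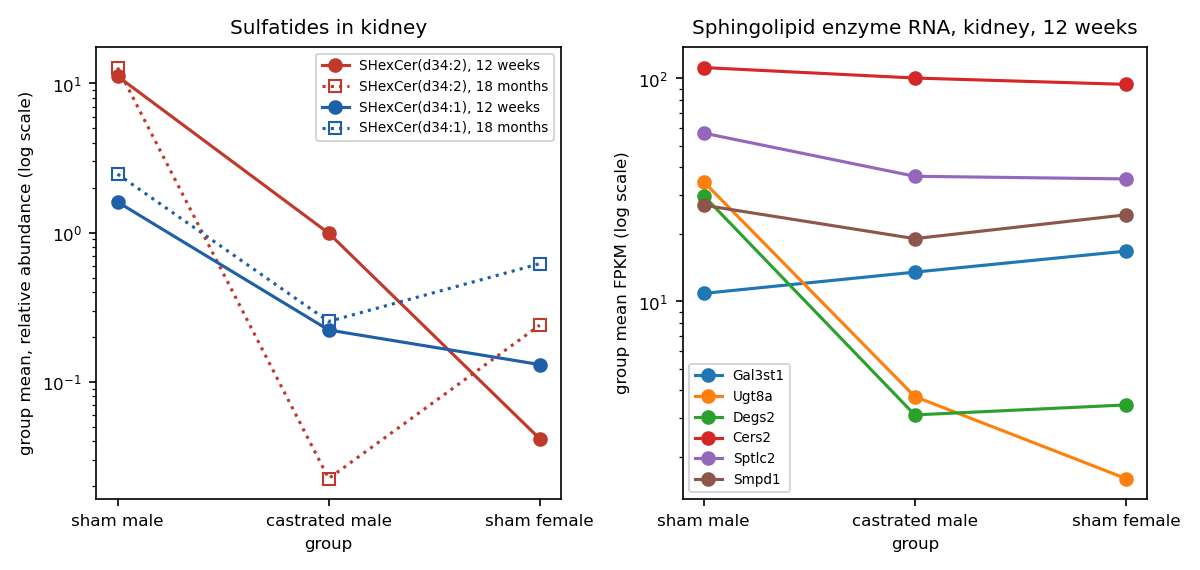
The left panel plots group means of the 2 sulfatides in kidney at 12 weeks (filled) and 18 months (open), on a log scale of relative abundance, for sham males, castrated males and sham females. The right panel plots group mean FPKM of 6 sphingolipid enzymes in kidney at 12 weeks on a log scale, and lines only join the groups. Both sulfatides and the RNA of Ugt8a and Degs2 are highest in sham males.

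RNA of the sphingolipid enzymes came from kidneys of the same 3 groups, with 3 libraries of sham males, 6 of castrated males and 3 of sham females. It is not stated whether these were the kidneys used for metabolites. Kidney markers were present in all 3 groups, with Slc34a1, the phosphate carrier of the proximal tubule, between 1199 and 1533 FPKM (sequenced fragments scaled for transcript length and sequencing depth) and the endocytic receptor Lrp2 between 61.6 and 81.4. Umod, of the thick ascending limb, had means of 689 FPKM in sham males, 425 after castration and 408 in females, whereas Slc12a1, of the same segment, had 162, 261 and 209. Aqp2, of the collecting duct, had 58.1, 84.4 and 114. Markers of 1 segment thus differed in order, and the part of these differences in any compound was not tested. Of the liver genes, Alb lay between 8.78 and 10.3 FPKM and Apoa2 between 13.3 and 17.3, while Ttr had 135 in sham males, 19.9 after castration and 35.8 in females. The part of Ttr was likewise not tested. In whole tissue, fewer cells of a type and less RNA or compound per cell cannot be told apart. The authors' deposited table lists each gene for a single comparison, and of the 5598 genes listed for castration it calls 22.6% higher and 26.0% lower at an adjusted p under 0.05. A gene listed for another comparison has no test for castration.

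Ugt8a, which adds galactose to ceramide in the step before sulfation, had means of 34.4 FPKM in sham males and 3.75 in castrated males, against 1.61 in females. The authors' deposited table lists it for sex, with an adjusted p of 0.000476, and not for castration. Gal3st1, the sulfotransferase that completes sulfatide, had means of 10.9, 13.5 and 16.8 FPKM and was thus highest in females, opposite in order to the sulfatides. Degs2, a ceramide desaturase and hydroxylase, fell from 29.8 to 3.10 FPKM after castration, with 3.44 in females and an adjusted p of 0.000476 in the authors' deposited table. Sptlc2, a subunit of the enzyme that starts sphingolipid synthesis, fell from 56.9 to 36.4 FPKM (adjusted p 0.0128, the authors' deposited table). Of the 6 genes in the sphingolipid list, 2 were listed for castration and both of these fell, where 26.0% of all genes so listed did.

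Other sphingolipids were mostly nearer their sham male level. Among 6 sphingomyelins the median log2 ratio was 0.06, and SM(d18:1/16:0) had means of 13.6 in sham males and 15.4 in castrated males, against 14.2 in females. SM(d14:0/20:2) was the only sphingomyelin past 2-fold, at -1.10. The 6 ceramides and sphingoid bases had a median of 0.49, none past 2-fold, with N-palmitoylsphingosine at 0.26. Galactosylsphingosine, the sulfatide precursor without its fatty acid, had means of 0.278, 0.278 and 0.259 and so was level across the groups.

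Hypotaurine, the direct precursor of taurine, was low in castrated males and in females. Its means were 1.46 in sham males and 0.415 in castrated males, against 0.443 in females, a castrated to sham male log2 ratio of -1.81. Taurine itself, an abundant osmolyte of the kidney, had means of 18.8, 25.4 and 21.8 and a ratio of 0.44. The 7 sulfur amino acid and methyl donor compounds had a median of -0.01, and the methyl donor betaine was at -0.01 and choline at 0.01. Hypotaurine was the single member of this class past 2-fold.

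The enzymes upstream of hypotaurine were partly lower. Csad, which decarboxylates cysteine sulfinate to hypotaurine, fell from 85.1 to 40.6 FPKM after castration, with 49.9 in females (adjusted p 0.000476, the authors' deposited table). Cbs, which draws homocysteine toward cysteine, fell from 76.3 to 32.5 FPKM (adjusted p 0.000476, the authors' deposited table). Fmo1, a flavin monooxygenase that can oxidize hypotaurine to taurine, had means of 545, 637 and 431 FPKM and is listed for another comparison. Cdo1, which makes the cysteine sulfinate that Csad uses, had means of 130, 133 and 99.1 FPKM, also without a castration test. Of the 14 genes in the methionine, betaine and taurine list, 3 were listed for castration in the authors' deposited table. All 3 fell, the other being the choline dehydrogenase Chdh, where 26.0% of all genes so listed fell.

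UDP-glucuronate, the donor of glucuronic acid for the conjugation of steroids, bilirubin and drugs, was 4.01-fold lower in castrated than in sham males. Its means were 0.68 in sham males and 0.17 in castrated males, against 0.0581 in females. All 5 glucuronic acid compounds had ratios below 0 (45.1% of all compounds did), with a median of -0.65 against 0.03 for all compounds. Leaving out the 25% of compounds with the lowest means left only UDP-glucuronate and the indole glucuronide named next, with a median of -1.74. An entry named 5-hydroxy-6-methoxyindole glucuronide had means of 0.424, 0.152 and 0.258, and free glucuronic acid had 0.0668, 0.0626 and 0.0787. Castrated males were lowest in both, and the last was within the gap seen between paired names. In liver at 12 weeks UDP-glucuronate had a ratio of -1.12, and in kidney at 18 months it had 1.45, the opposite direction.

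Glycerophospholipids with inositol stood low as a class. Of 19 phosphatidylinositols, which carry the inositol headgroup used for signalling lipids, 16 had ratios below 0, against 45.1% of all compounds. The class median was -0.46, and 3 were at least 2-fold lower, against 5.12% of all compounds. PI(16:0/16:0) had means of 0.821 in sham males and 0.274 in castrated males, against 0.211 in females, a ratio of -1.58. PI(16:0/22:6) had means of 23.3, 13.6 and 15.8, and PI(18:0/20:3) had 9.56, 5.35 and 5.81. Sham males were highest in these 3 lipids, and castrated males and females were near each other.

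Phosphatidylinositols with a 20:4 chain, the composition of arachidonate, stood nearer the sham male level. The 5 with a 20:4 chain had a median of -0.02, against -0.72 for the 14 without one. PI(18:0/20:4), the chain pair that is typical of mammalian phosphatidylinositol, had means of 0.534, 0.569 and 0.596, and PI(20:4/20:4) had the highest ratio of the class, 0.40. The 6 lysophosphatidylinositols, which have lost 1 chain, had a median of -0.29. All 6 entries, with the 18:0 form under 2 names, had ratios below 0, against 45.1% of all compounds. LPI(20:3) was the lowest of the 6, with means of 1.36, 0.555 and 0.467. In kidney at 18 months 15 phosphatidylinositols, only partly the same lipids, had a median of 0.24, above 0. There PI(16:0/22:6) was again below 0, at -0.51, while PI(16:0/18:2) had 2.61. PI(16:0/16:0) and PI(18:0/20:3) were not matched at that age, and LPI(20:3) was again low at -1.23. In 12-week liver 15 phosphatidylinositols had a median of -0.59, with 11 ratios below 0 and 5 at least 2-fold lower. The median of all liver names was -0.06, and 6.53% of them were at least 2-fold lower.

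A free fatty acid with 20 carbons and 3 double bonds was also low in kidney at 12 weeks. The name 8,11,14-eicosatrienoic acid is that of dihomo-gamma-linolenic acid, which delta-5 desaturase turns into arachidonic acid. Its means were 40.1 in sham males and 16.9 in castrated males, against 24.9 in females, a log2 ratio of -1.24. Its ratio was 0.65 in kidney at 18 months and 1.08 in 12-week liver, both opposite in direction. Arachidonic acid had means of 215, 260 and 288 and a ratio of 0.27, and docosahexaenoic acid had 199.9, 210.03 and 229.99. The eicosatrienoic acid thus stood below and arachidonic acid above its sham male mean. The ratio of 0.27 was smaller than the second widest gap between paired names, 0.58, and the desaturase step was not tested. Of 11 glycerophospholipids with a 20:3 chain, 7 had ratios below 0, with a median of -0.17, and of 23 with a 20:4 chain 10 did, with a median of 0.03. Where names give the bond positions of a 20:3 chain, it is another isomer than the 8,11,14 form. Across all compounds 45.1% of ratios were below 0, so the 20:4 share was near that of all compounds.

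Lysophosphatidylcholines, single-chain lipids made by phospholipase action or taken up from plasma, were mostly on the higher side. Of 28 entries, 24 had ratios above 0, where 54.9% of all compounds did, and the median was 0.22. Past 2-fold were 3 entries, all higher, against 4.43% of all compounds. Several chain compositions, such as 18:2, 18:3 and 14:0, appear under 2 names, so the entries may not all be separate lipids. The entry LysoPC(20:4(8Z,11Z,14Z,17Z)) had means of 60.8 in sham males and 123 in castrated males, against 116 in females, a ratio of 1.01. The entry LPC(20:4), of the same chain composition, had 0.00706, 0.00993 and 0.015, a ratio of 0.49. Both were higher in castrated males, but only the first passed 2-fold. LPC(17:0), an odd-chain form, had means of 0.365, 1.31 and 0.365, so castrated males alone were high. The entry with the largest means, a palmitoyl form, had 780, 871 and 800 and a ratio of 0.16. In the authors' deposited table, Lpcat3, which re-esterifies lysophospholipids with polyunsaturated chains, fell from 95.8 to 56.7 FPKM (adjusted p 0.00644). Lypla1, a lysophospholipase, fell from 146 to 57.0 FPKM and Enpp2, which cleaves the choline from lysophosphatidylcholine, from 58.8 to 32.2 (both adjusted p 0.000476, the authors' deposited table). Of the 6 genes in that list, 4 were listed for castration and 3 fell, where 26.0% of all genes so listed did.

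Lysophosphatidylglycerols differed by chain, with a median of 0.16 over 10 entries and 1 past 2-fold. LPG(22:5) had means of 0.664, 1.65 and 1.53, LPG(20:4) had 0.462, 0.819 and 0.84, and LPG(22:6) had 4.40, 7.14 and 8.65. The saturated LPG(16:0) had 1.31, 1.44 and 1.74, a ratio of 0.15. The polyunsaturated LPG(20:3) and LPG(18:2) were the 2 entries below 0, at -0.44 and -0.17. Among the 22 phosphatidylglycerols, precursors of mitochondrial cardiolipin, the median was 0.04 and none was past 2-fold, yet the members ran from PG(16:0/16:0) at -0.85 to PG(22:4/22:6) at 0.79. The 5 with a 22:6 chain had a median of 0.53.

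Phosphatidylcholines whose first chain is written as an acetyl group split by their second chain. This naming is that of platelet-activating factor analogues, although other chain pairs with the same total bear the same mass. PC(2:0/18:0) had means of 2.43 in sham males and 0.405 in castrated males, against 0.409 in females, and PC(2:0/20:1) had 0.785, 0.211 and 0.212. PC(2:0/20:0), at 0.502, 0.108 and 0.041, was lower still in females. These 3 and the forms with 17:0 and 19:0 chains were past 2-fold, 5 of the 8 entries, and sham males alone were high in them. Of all compounds, 5.12% were at least 2-fold lower. The forms with 16:0, 18:1 and 18:2 chains had ratios of 0.32, 0.15 and 0.76. In kidney at 18 months PC(2:0/18:0) had a ratio of 2.34, opposite to that at 12 weeks, and the 12 such entries of the 12-week liver had a median of 0.69. The 26 diacyl phosphatidylcholines of the kidney had a median of -0.15, with none past 2-fold.

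**Figure D3:**
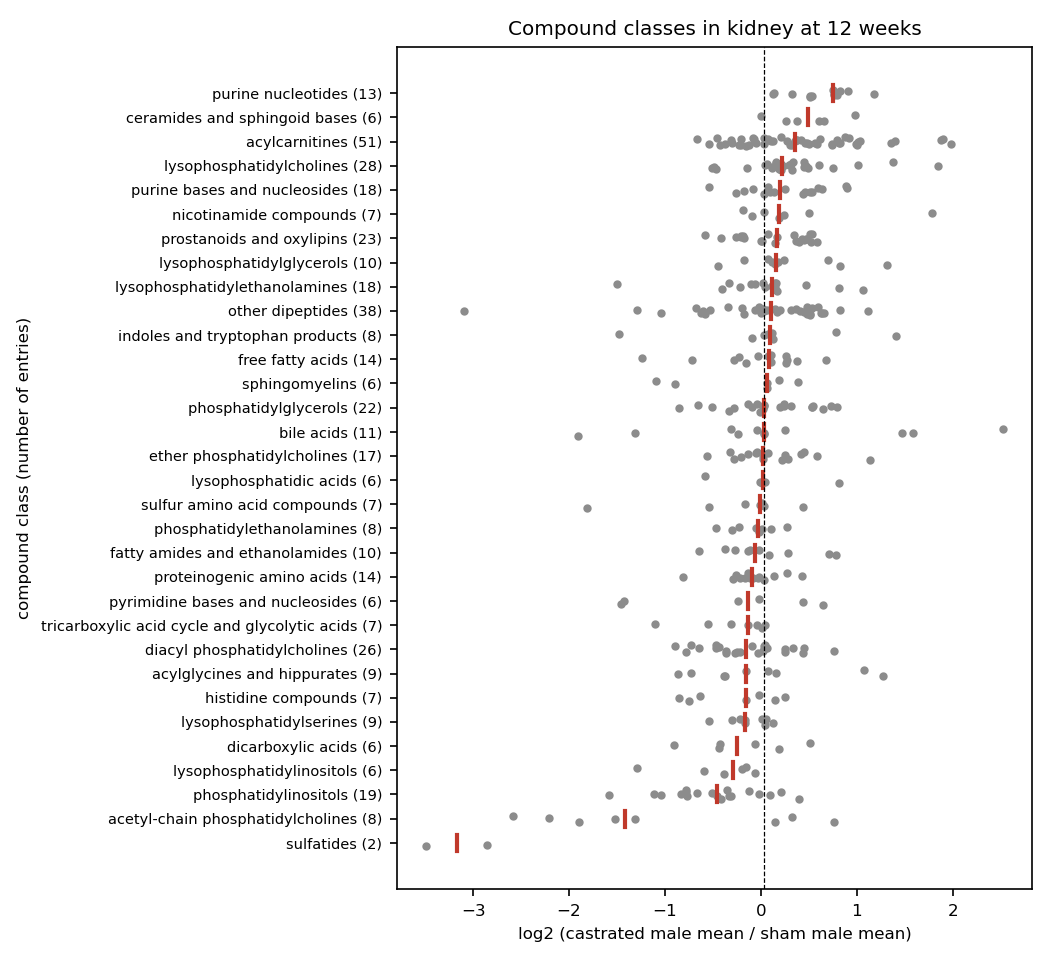
Each grey point is 1 compound entry, placed by its log2 ratio of castrated to sham male means (x axis), in classes with at least 6 entries and in the sulfatides (y axis, with the number of entries). Red bars are class medians and the dashed line is the median of all 723 compounds, 0.03. Sulfatides (-3.17) and acetyl-chain phosphatidylcholines (-1.42) have the lowest medians drawn, and purine nucleotides (0.75) the highest.

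Acylcarnitines, the carriers that move fatty acyl groups into mitochondria, stood higher in castrated males. Of 51 entries 36 had ratios above 0, where 54.9% of all compounds did, with a median of 0.35. At least 2-fold higher were 8 entries, against 4.43% of all compounds, and none was 2-fold lower, against 5.12%. ACar(22:4) had means of 0.836 in sham males and 3.07 in castrated males, against 2.67 in females, and ACar(23:4) had 0.152, 0.565 and 0.238. Acetylcarnitine, the shortest, had means of 16.8, 25.2 and 29.2. Castrated males were thus near females for the first and the last and above both other groups for ACar(23:4). In 12-week liver 29 of 36 acylcarnitines had ratios above 0, with a median of 0.52, where 43.1% of all names did. In kidney at 18 months 39 of 55 did, with a median of 0.22, where 54.1% of all names did.

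The acylcarnitines differed with their number of double bonds. The 23 with 2 or more double bonds had a median castration ratio of 0.61, 13 with 1 double bond had 0.27, and 13 saturated ones had 0.08. Chain length gave no steady order: the medians were 0.54 for 4 entries with 2 to 5 carbons, 0.21 for 14 with 6 to 12, 0.31 for 19 with 14 to 18 and 0.59 for 12 with 19 to 24. Of the last 12, 11 had 2 or more double bonds. Within the 14 to 18 carbon group the castration medians lay closer, at 0.35, 0.29 and 0.22 from most to least unsaturated. Sham females showed a wider gap between these forms: the saturated ones had a median female to sham male ratio of -0.77 and the most unsaturated ones 0.61. With 14 to 18 carbons these female medians were -0.40 and -0.19. Across all compounds 55.0% of the female ratios were above 0 and 45.0% below 0. The comparison of castration with sex in these lipids shares the sham male means and was not tested.

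Saturated acylcarnitines of medium length were low in females and near the sham male level in castrated males. All 5 such entries with 6 to 12 carbons had female ratios below 0, with a median of -0.94, whereas their castration median was 0.03. Decanoylcarnitine had means of 1.98 in sham males and 1.53 in castrated males, against 0.651 in females, and ACar(12:0) had 2.46, 2.50 and 1.28. Propionylcarnitine, a product of odd-chain and branched-chain breakdown, had 10.7, 10.9 and 3.996. Females alone were low in these compounds. The entry 3-methylglutarylcarnitine, related to leucine breakdown, had the opposite form, with means of 0.0394, 0.0781 and 0.61.

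**Figure D4:**
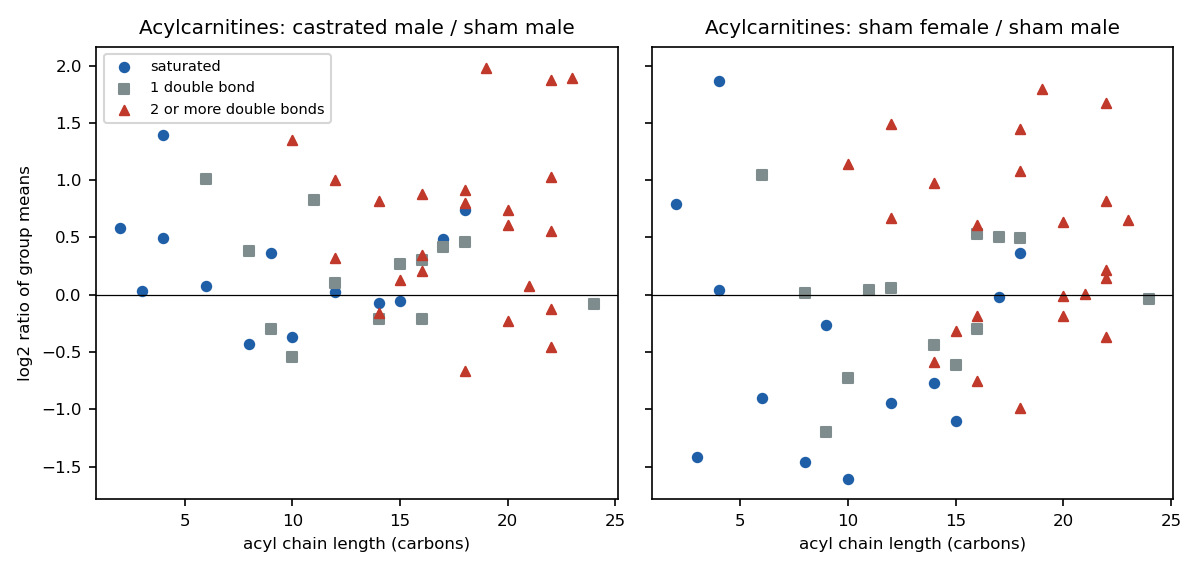
Each point is 1 of 49 acylcarnitines with a chain length in its name, placed by acyl carbons (x axis) and log2 ratio of group means (y axis), for castrated males (left) and sham females (right), each over sham males. Colour and shape give the number of double bonds. Medium-length saturated forms lie below 0 in females (median -0.94) and near 0 in castrated males (median 0.03).

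Of 9 measured genes of carnitine supply, fatty acyl transfer and oxidation, 5 were listed for castration in the authors' deposited table. All 5 fell, where 26.0% of all genes listed for castration did, and the other 4 have no castration test. In the authors' deposited table, Acadm, the medium-chain acyl-CoA dehydrogenase, fell from 322 to 135 FPKM with 243 in females (adjusted p 0.000476). Crot, the peroxisomal carnitine octanoyltransferase, fell from 130 to 34.9 FPKM, and Cpt1a, which forms long-chain acylcarnitines, from 81.3 to 48.1 (both adjusted p 0.000476, the authors' deposited table). Acadl, the long-chain dehydrogenase, and Crat, the acetyltransferase, also fell in the authors' deposited table. The plasma membrane carnitine carrier Slc22a5 had means of 91.8, 89.8 and 84.0 FPKM and is listed for another comparison. Its order did not separate the groups, and 4-(trimethylammonio)butanoate, the precursor of carnitine also called butyrobetaine, had means of 0.287, 0.644 and 0.564.

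Nicotinamide mononucleotide, the step between nicotinamide and NAD, was 3.45-fold higher in castrated males. Its means were 2.47 in sham males and 8.51 in castrated males, against 6.23 in females, and at 18 months its castration ratio in kidney was 1.06. NAD had means of 5.75, 6.55 and 3.31, and nicotinamide had 140.03, 143 and 138. Castrated males thus resembled females in the mononucleotide and sham males in NAD. NADP, the phosphorylated form used in synthesis, likewise had 0.841, 0.789 and 0.384, with only females low.

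The enzymes on either side of the mononucleotide moved apart. Nampt, which makes it from nicotinamide, rose from 28.7 to 37.8 FPKM with 26.9 in females (adjusted p 0.0224, the authors' deposited table). Nmnat1, which converts it to NAD in the nucleus, fell from 10.9 to 7.48 FPKM with 6.61 in females (adjusted p 0.00902, the authors' deposited table). Nadk, the NAD kinase, fell from 58.4 to 33.1 FPKM (adjusted p 0.000476, the authors' deposited table). Of the 5 genes in the list, 3 were listed for castration, with 1 rise and 2 falls.

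Nucleoside monophosphates were higher in castrated males. All 13 purine nucleotide entries had ratios above 0, where 54.9% of all compounds did, with a median of 0.75. However, AMP, ADP, inosinic acid and adenylosuccinate each appear in this class under a pair of names, and only 3'-AMP was past 2-fold. AMP had means of 12.6 in sham males and 21.4 in castrated males, against 15.1 in females. ATP, the triphosphate, had 0.046, 0.0502 and 0.0482, and ADP had 3.45, 4.93 and 4.39 under its abbreviated name (ratio 0.52) and 0.958, 1.05 and 1.11 under its full name (ratio 0.13). The ratio of castrated to sham males was thus widest for the monophosphate, whose ratio at 18 months was -0.24. Cytidine monophosphate had 1.13, 2.34 and 2.27 and uridine monophosphate 0.19, 0.324 and 0.309, so that these pyrimidines were similar in castrated males and females.

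Among the free bases and nucleosides, adenosine and hypoxanthine were level, at ratios of 0.03 and 0.10, and uric acid, the end product of purine breakdown, had means of 0.994, 1.84 and 1.28. Xdh, which makes uric acid from xanthine, rose from 4.02 to 7.31 FPKM, and Pnp, which splits purine nucleosides, fell from 55.8 to 18.8 (both adjusted p 0.000476, the authors' deposited table). Thymidine had means of 0.267, 0.0972 and 0.152, and its base thymine 0.39, 0.144 and 0.213. Castrated males were lowest in both thymine compounds, and the thymidine ratio was -1.46. Of the 8 genes in the purine list, 2 were listed for castration and these are the pair named here.

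Bile acids showed no common direction. These steroids are made in liver and reach the kidney through the blood. Of 11 entries, 6 had ratios above 0 and 5 below, 3 were 2-fold higher and 2 were 2-fold lower, with a median of 0.03. Cholic acid, a primary bile acid, had means of 0.0702 in sham males and 0.404 in castrated males, against 0.141 in females, a log2 ratio of 2.52. In kidney at 18 months its ratio was 1.01. The entries 7-ketodeoxycholic acid (0.0159, 0.0476 and 0.0213) and 7alpha-hydroxy-3-oxo-5beta-cholan-24-oic acid (0.0216, 0.0599 and 0.0219) were also high in castrated males alone, but the first had a ratio of -1.08 at 18 months against 1.59 at 12 weeks.

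The conjugated forms named next had lower means in castrated than in sham males, but so did the unconjugated ursodeoxycholic acid. The conjugated glycohyocholic acid was near its sham male level. Sulfolithocholylglycine, a sulfated and glycine-conjugated form, had means of 0.843, 0.225 and 0.196, so sham males alone were high. Taurodeoxycholic acid had 0.225, 0.0911 and 0.275, so castrated males alone were low, and taurocholic acid had 1.79, 1.44 and 2.34. At 18 months the ratios of these 3 were 0.03, 1.60 and 1.68, so none was low in castrated males at that age. Slco1a1, an organic anion carrier of the tubule that transports bile acids and steroid conjugates, had means of 75.6, 0.0396 and 0.0250 FPKM. It is listed for another comparison in the authors' deposited table and so has no castration test, as have all 4 genes of the bile acid list.

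Cortisol had the highest ratio of all compounds, 2.96, but its sham male mean of 0.00027 was the lowest value in the table. Adding that value to every mean brought the ratio to 2.14. In mice corticosterone is the main glucocorticoid, and its inactive metabolite 11-dehydrocorticosterone had means of 0.0246, 0.032 and 0.0353. Allopregnanolone, a progesterone metabolite, had 0.0212, 0.0472 and 0.0267 and was high in castrated males alone. Cholesterol had 1.82, 1.29 and 2.24. Hsd11b1, which interconverts 11-keto and 11-hydroxy glucocorticoids, fell from 113 to 71.4 FPKM (adjusted p 0.00089, the authors' deposited table).

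Dipeptides, the products of incomplete protein breakdown, varied widely around a median of 0.11. Of 38 entries, 3 were at least 2-fold lower and 1 was higher. Isoleucyl-Leucine had means of 0.0799 in sham males and 0.00933 in castrated males, against 0.00419 in females, a ratio of -3.10, and it had -2.51 in kidney at 18 months. Phenylalanyl-Glycine had 0.0956, 0.207 and 0.317 and went the other way. The imidazole dipeptide carnosine had 0.215, 0.119 and 0.32, and 0.444, 0.285 and 0.647 under its second name. Castrated males were lowest and females highest under both names. Cndp2, a cytosolic dipeptidase, fell from 755 to 110.4 FPKM with 93.0 in females (adjusted p 0.000476, the authors' deposited table).

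Amino acids and central carbon acids stayed near their sham male level. The 14 proteinogenic amino acids had a median of -0.10 and none was past 2-fold. Creatine had means of 34.8, 34.03 and 34.6 and lactic acid 79.6, 72.4 and 81.0. Of 7 acids of glycolysis and the tricarboxylic acid cycle, only 3-phosphoglyceric acid was past 2-fold, at 0.0611, 0.0285 and 0.0375. Citric acid, which the proximal tubule reabsorbs, had 2.26, 1.54 and 1.77. Anthranilic acid, a product of tryptophan breakdown, had 0.0139, 0.0371 and 0.0272, whereas tryptophan itself was level at 12.1, 12.3 and 14.7.

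Several compounds separated females from both male groups more than castrated from sham males. Prostaglandin E2, a lipid mediator of renal blood flow and salt excretion, had means of 0.065 in sham males and 0.0873 in castrated males, against 0.154 in females. The cyclooxygenase product 12S-HHT had 0.17, 0.256 and 0.504. Among 23 prostanoids and oxylipins the median castration ratio was 0.17 (-0.004 without the 25% of compounds with the lowest means) and the median female ratio 0.51, with none past 2-fold after castration. Phosphorylcholine, the intermediate of phosphatidylcholine synthesis, had 13.2, 20.5 and 37.3. L-Ascorbic acid, which mice synthesize, had 4.55, 6.23 and 9.31. In these 4 compounds castrated males lay between sham males and females.

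The remaining compounds with extreme ratios carry names for which a source in the mouse is unclear. The lowest of all, 5-Methyl-5-hepten-2-one, had means of 0.465 in sham males and 0.0193 in castrated males, against 0.0169 in females, a ratio of -4.59. Gentiatibetine had 0.261, 0.021 and 0.0246, and 4-Hydroxy-5-methyl-3(2H)-thiophenone had 0.207, 0.019 and 0.015. Sham males alone were high in these 3, and in kidney at 18 months the thiophenone had a ratio of -4.69 while Gentiatibetine had -0.01. The entries L-N-(3-Carboxypropyl)glutamine (0.741, 0.176 and 0.0518) and the nor-eremophilenone (0.733, 0.164 and 0.135) were also highest in sham males, with females lowest. Sagerinic acid had 0.00787, 0.00215 and 0.00781, so only castrated males were low. On the higher side, 6-hydroxy-2-phenyl-4H-chromen-4-one had 0.157, 0.601 and 0.26, a pentadecenyl benzopyranone had 0.131, 0.452 and 0.13, and 2-aminoheptanedioic acid had 0.0479, 0.13 and 0.741. The first and second were high in castrated males alone, and the third was highest in females. Of the other entries named by rank, ACar(19:2) had 0.00904, 0.0357 and 0.0314, butyrylcarnitine 0.00585, 0.0154 and 0.0214, and LPC(24:4) 0.147, 0.383 and 0.446.

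**Figure D5:**
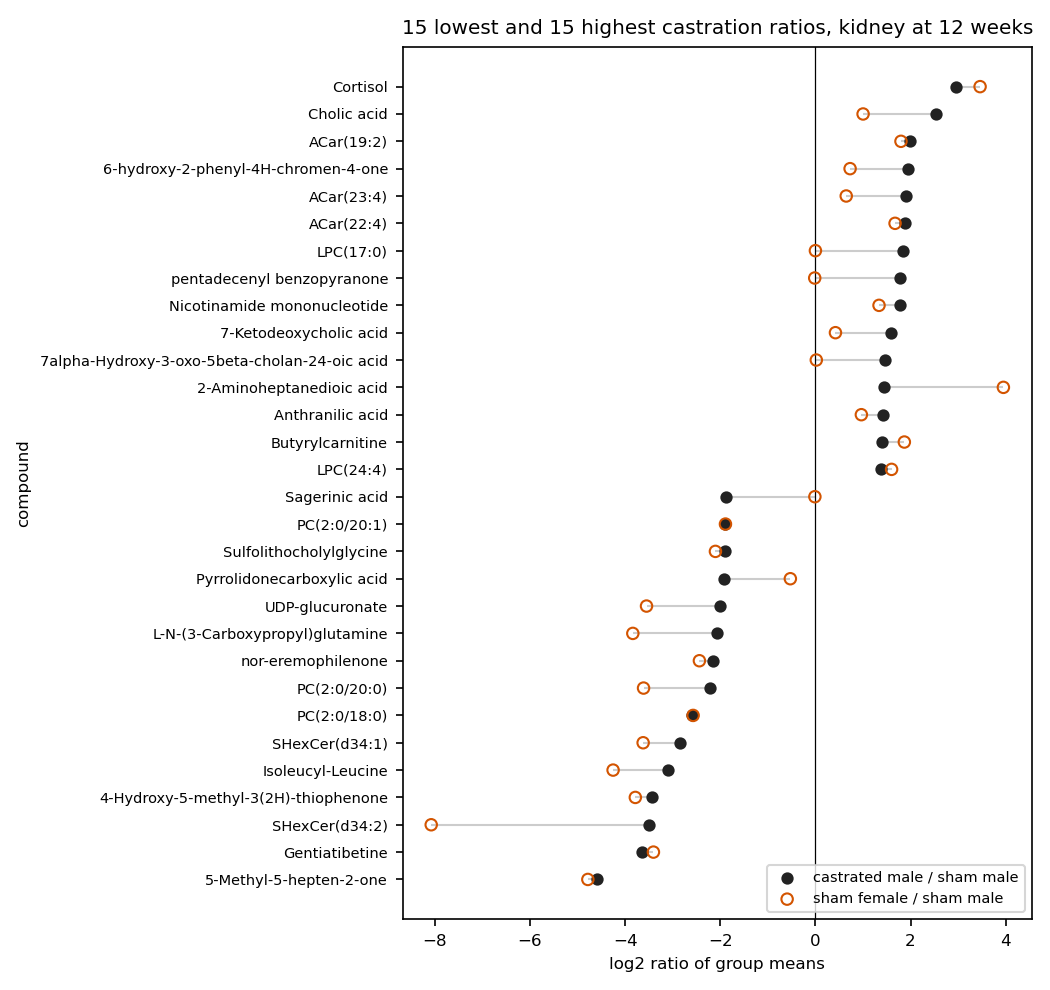
The 15 compounds with the lowest and the 15 with the highest castrated to sham male ratio (y axis) are shown by their log2 ratio of group means (x axis). Filled points are castrated males over sham males, open points are sham females over sham males, and grey lines join them. For SHexCer(d34:2) the open point (-8.08) lies far below the filled one (-3.49), and for LPC(17:0) it lies at 0.00 beside 1.85.

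The kidney ratios had limited likeness to those of the other tables. By name, 451 of the 723 compounds (62.4%) were matched in kidney at 18 months, and across them the castration ratios had a Pearson correlation of 0.25 and a Spearman correlation of 0.20. For 380 compounds matched in 12-week liver these were 0.19 and 0.20. Compounds are not independent replicates, each point shares the animals and the scaling of its table, and kidney and liver at 12 weeks may come from the same mice. Of 18 matched compounds at least 2-fold higher in kidney at 12 weeks, 5 were 2-fold higher at 18 months, where 7.01% of 984 names were. Of 17 matched compounds at least 2-fold lower, 5 were 2-fold lower at 18 months, against 5.69%. In liver 1 of 12 and 1 of 10 such compounds were past 2-fold the same way, where 3.54% of names were higher and 6.53% lower.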

How the data were processed

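Per the labels' design text, kidney and other samples were profiled by untargeted metabolomics. The authors deposited 1 relative abundance signal per compound and group, already averaged; no source used here gives its normalization, number of animals or platform. For RNA, the authors deposited FPKM as group means, and a p-value and adjusted p-value per gene for 1 of 3 comparisons; the submitters' processing notes name HISAT2, SAMtools, Cufflinks and mm10. Depth is unknown.

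Log2 ratios of group means were computed in Python 3.11.15 with pandas 2.3.3, with no pseudocount and no filter, and the functions were tested on simulated data. Classes were defined by name patterns, for 39 classes holding 465 compounds. The compounds, classes, name pairs and gene lists were chosen with earlier results of these data known. Named compounds are the 15 highest and 15 lowest ratios plus class members. Alternatives were a 1.5-fold limit, centring on the median compound, dropping the 25% of compounds with the lowest means, and adding the lowest mean to each mean. Names were matched between tables in lower case. Serum tables were not used here.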

Additional observations from a re-analysis of the deposited data

How the results depend on the processing

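Of 33 recomputed counts and medians, 25 stayed within 1.5 times the reported count, or within the median gap between paired names (0.14). With a limit of 1.5-fold, castrated males had 99 compounds higher and 75 lower than sham males, sham females had 119 higher and 96 lower than sham males, and castrated males had 75 higher and 59 lower than sham females. Without the 25% of compounds with the lowest means, 31 were at least 2-fold higher in sham females than in sham males and 7 were lower in castrated males than in sham females. Of 216 recomputed single ratios and class medians, 9 moved by more than 0.14, among them cortisol. Centring shifted each of these by only 0.03, so no centred ratio or class median could pass that limit. The moves came from dropping the low compounds or, for cortisol, from adding the lowest mean. The sign of 8 class medians changed, 2 when ratios were centred and 6 without the low compounds, among them bile acids (-0.10), free fatty acids (-0.03) and steroids (-0.48). Every name was distinct, so using every entry repeated the same counts and medians. These repeats are part of both totals and could not move. The planned filter on an identification score was not run, since the table used has no such score. No paired analysis was possible because only group means were used, and no animal could be left out. The number of animals, the spread among them and the evidence behind each name limit every value.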
